A study of Saccharomyces cerevisiae with 6 samples.

Results

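The THO complex and the helicase Sub2 are the RNA-packaging partners of Yra1, and their genes were followed here on arrays that compared a yra1-1 mutant of budding yeast with a wild-type strain. The genes were chosen by name: SUB2 (YDL084W), THO2 (YNL139C), HPR1 (YDR138W), MFT1 (YML062C), THP2 (YHR167W) and TEX1 (YNL253W). The probe annotation gave these 6 genes, of 5583 named genes, 7 of the 7680 features: 1 each, and 2 for MFT1. Each feature is named by its gene and its identifier on the array. The rule uses gene names and no measured value, although earlier results of these data were known when it was written, and all 7 features had a value on all 6 arrays.

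Total RNA of temperature-sensitive yra1-1 cells at 37 °C was compared with total RNA of Yra1 wild-type cells, also at 37 °C, on 6 two-colour arrays with no common reference. The labels call this temperature non-permissive for the mutant, and it is shared by both strains. They place yra1-1 RNA in channel 1 and wild-type RNA in channel 2 on arrays 1, 4 and 6, and the reverse on arrays 2, 3 and 5. The sources used here do not name the strain background, the time at 37 °C or the number of cultures, so p-values measure the spread between arrays, which may be technical.

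Yra1 is an adaptor that couples messenger RNA to the export receptor Mex67. Sub2 is an RNA-dependent ATPase of the DEAD-box family that brings Yra1 to the transcript, and it joins the THO complex on genes during transcription. THO, Sub2 and Yra1 together are called TREX, for transcription and export. Yeast lacking THO subunits are known for poor transcription elongation, retention of RNA in the nucleus and recombination linked to transcription.

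The values are log ratios of the channels, given here in log2 after each array was centred on its median. Which channel is the numerator is not stated in these sources. A value turned by the labels keeps its sign on arrays 1, 4 and 6 and changes it on arrays 2, 3 and 5. A positive turned value means higher in yra1-1 if channel 1 is the numerator and higher in wild type if channel 2 is. If the authors had already turned the columns, the values as deposited carry the comparison instead. If they had not, a shift as deposited is what stays the same when the strains swap channels, and it is not a strain difference. The report therefore gives positive and negative sides under both readings and says of none that it is up or down in the mutant.

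The arrays differed in ways that touch every feature. The SD across features was 0.99 to 1.43, and array medians before centring ran from −3.91 to 4.11 (log2). The medians were −1.90, −3.91 and −3.01 on arrays 1, 4 and 6, and 0.16, 4.11 and −0.44 on arrays 2, 3 and 5. Centring thus also removed an offset that went with the labelled channel. Columns with the mutant in the same channel correlated across features at 0.042 to 0.386 in 6 pairs, and columns with it in opposite channels at −0.13 to 0.326 in 9 pairs. Array 1 correlated at 0.307 and 0.168 with arrays 4 and 6, and at −0.042, −0.135 and −0.064 with arrays 2, 3 and 5. Array 6 correlated at 0.326 and 0.255 with arrays 2 and 3, which have the opposite channel label. Features next to each other by identifier correlated within an array at 0.416 to 0.523, features 20 identifiers apart at 0.362 to 0.447, and features 10 apart at 0.091 to 0.278. For this reason, each member is set beside the median of its 8 neighbours, which lie 1, 2, 20 and 21 identifiers away on either side. YRA1 (feature 737) stood at −1.39, 1.21 and 1.00 on arrays 1, 4 and 6, and at 3.07, 1.64 and 3.49 on arrays 2, 3 and 5 (log2, as deposited). As deposited, the mutated gene was thus negative on array 1 alone, against the sign of the other arrays with the same channel label. Turned by the labels, it was negative on arrays 1, 2, 3 and 5 and positive on arrays 4 and 6. Since the allele is temperature-sensitive, its RNA need not be lost, and it checks no label. Array 1 is also the one whose title puts mex in front of yra1-1, which no source used here explains, so it is less sure which RNA it holds in which channel. The shifts of THO2, TEX1, CBC2, HRP1 and YRA1 are given with and without it.

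None of the 7 member features passed in either reading. By limma, fitted over all 7680 features with Benjamini-Hochberg adjustment, 1 feature (0.0130%) passed an adjusted p of 0.05 when signs were turned by the labels, and 127 (1.65%) passed in the columns as deposited. At an unadjusted p under 0.05, 1 of the 7 members (THO2) was called in the turned reading, against 13.0% of all features, and 0 of 7 as deposited, against 13.5%. The turned shifts were positive for 4 and negative for 3 members, with a median of 0.065, beside 0.042 over all features (log2). As deposited, 5 were positive and 2 negative, with a median of 0.20, beside 0.017 over all features. In the turned reading 1 of 7 members (THO2) had the same sign on all 6 arrays, against 7.28% of features, and as deposited 0 of 7 did, against 8.09%.

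**Figure D1:**
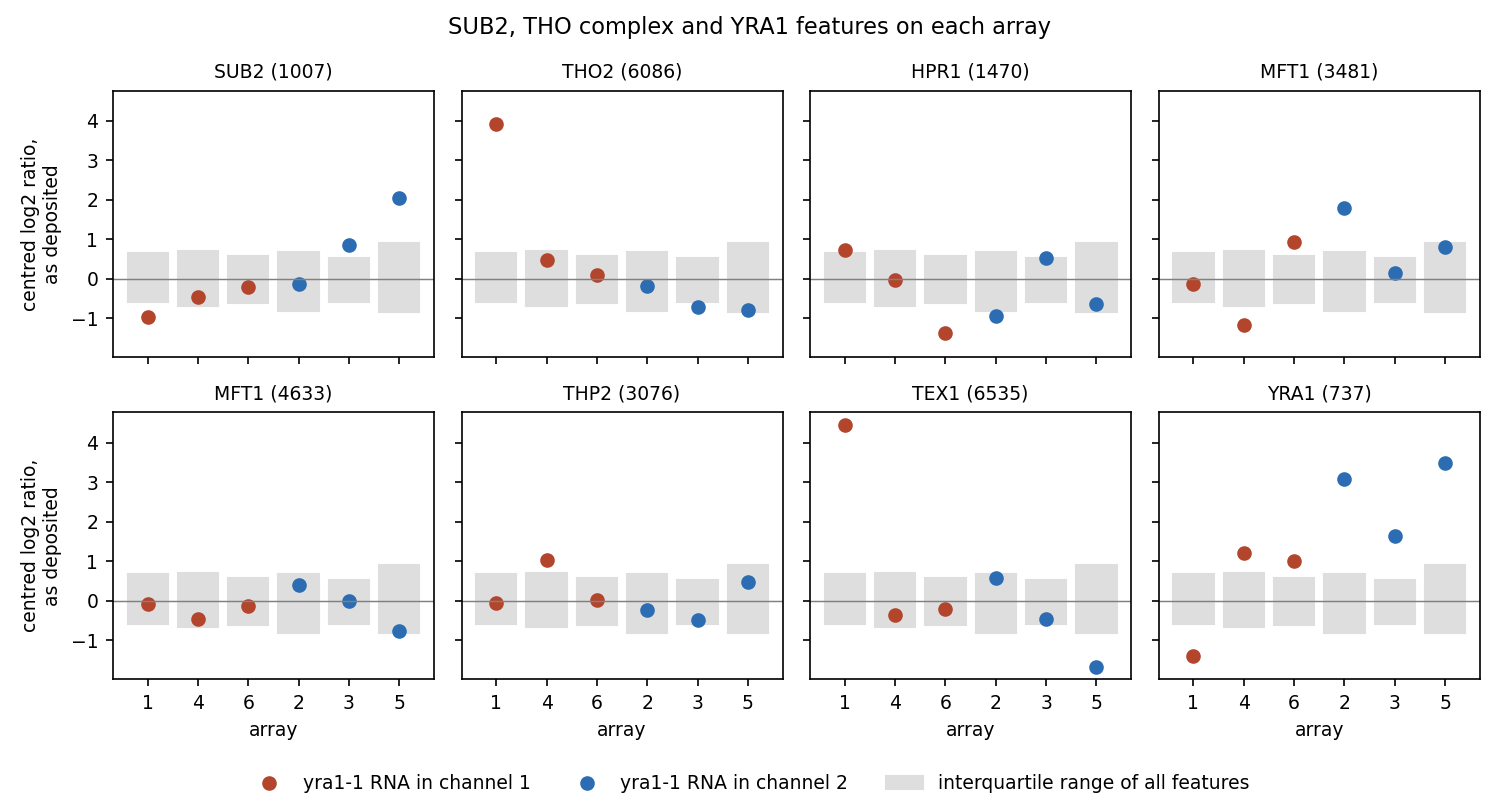
Centred log2 ratio as deposited (vertical axis) of the 7 SUB2 and THO features and of YRA1 on each array (horizontal axis), with the arrays that carry yra1-1 RNA in channel 1 on the left and in channel 2 on the right of each panel. Points are single arrays and grey boxes the interquartile range of all features on that array. SUB2 runs from −0.95 to 2.05 with no overlap between the channel groups, and THO2 and TEX1 stand at 3.91 and 4.46 on array 1 alone.

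SUB2, the helicase, was on the negative turned side, and its channel groups did not overlap. Its feature (1007) stood at −0.95, −0.46 and −0.19 on arrays 1, 4 and 6, where yra1-1 RNA was in channel 1, and at −0.13, 0.86 and 2.05 on arrays 2, 3 and 5, where it was in channel 2 (log2, as deposited). All values of the first group lay below all of the second, by a margin of less than 0.1 between array 6 and array 2. Such a split with the channel 1 group lower was found in 9.10% of all features with 6 values, so it is no more than a description of SUB2. The means were −0.54 ± 0.39 with yra1-1 in channel 1 and 0.93 ± 1.09 with it in channel 2 (SD, n = 3 each). An exact permutation test of the channel labels gave p = 0.1 (two-sided), the smallest that 3 arrays against 3 allow. The turned shift was −0.73 ± 0.35 (SE), with a 95% interval of −1.51 to 0.04, and 5 of 6 arrays were negative (limma adjusted p = 0.413).

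SUB2 kept its turned side without any single array and within each day that holds both channel assignments. Days were read from numeric codes in the array titles, taken as dates, and the titles do not say what was dated. Without each array in turn the turned shift was −0.996 to −0.45 (−0.45 without array 5). It was −1.12 within day 1 (arrays 5 and 6) and −0.91 within day 4 (arrays 1 and 3), where the mutant was labelled in each channel once. Its slide neighbours were not on the same side throughout: their median was −0.56, 0.13 and 0.56 on arrays 1, 4 and 6, and −0.36, 0.22 and 0.46 on arrays 2, 3 and 5. After subtracting them, SUB2 was at −0.39, −0.59 and −0.75 on arrays 1, 4 and 6, and at 0.23, 0.64 and 1.59 on arrays 2, 3 and 5. In that form all 6 turned values were negative, the shift was −0.70 ± 0.25 (SE) and the limma adjusted p was 0.528. With columns as deposited, SUB2 had a shift of 0.20 ± 0.35 with 2 of 6 arrays positive (limma adjusted p = 0.902).

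THO2 codes for the largest THO subunit, a scaffold of the complex, and was on the positive turned side on all 6 arrays. It stood at 3.91, 0.48 and 0.11 on arrays 1, 4 and 6, with yra1-1 in channel 1, and at −0.18, −0.70 and −0.77 on arrays 2, 3 and 5, with it in channel 2. The groups did not overlap, a split with the channel 1 group higher that was found in 8.98% of all features. The turned shift was 1.03 ± 0.47 (SE, 95% interval 0.01 to 2.04, limma adjusted p = 0.383), and the exact permutation test of the channel labels gave p = 0.1. Array 1 carried most of this size: without it the turned shift was 0.42 ± 0.37 (limma adjusted p = 0.811). As deposited, the shift was 0.48 ± 0.47 with all arrays (limma adjusted p = 0.773) and −0.13 without array 1.

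THO2 shared most of its values with features beside it. On arrays 1, 2 and 3 its feature (6086) had, to the last of 9 decimals, the value of the next feature, LSM7 (6087), which codes for a protein of the RNA decay and splicing rings. It also shared its value with an unnamed feature 20 identifiers away on arrays 1, 2, 3, 5 and 6, so that array 4 alone gave a value not repeated elsewhere. None of the other members shared a value with another feature. Leaving out repeated values removed THO2 from the test. Over 6 arrays, the root mean square difference between THO2 and that unnamed feature was 0.014, and that between THO2 and LSM7 0.43 (log2). With the neighbour medians subtracted, which include these features, the turned shift of THO2 was 0.32 ± 0.32 (SE, limma adjusted p = 0.769).

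TEX1, a THO subunit built of WD repeats, was high on array 1, as THO2 was, and spanned 0 on the others. Its feature (6535) stood at 4.46, −0.37 and −0.21 on arrays 1, 4 and 6, with yra1-1 in channel 1, and at 0.57, −0.46 and −1.68 on arrays 2, 3 and 5, with it in channel 2. The groups overlapped. The turned shift was 0.91 ± 0.58 (SE, 95% interval −0.37 to 2.18, limma adjusted p = 0.575), with 3 of 6 arrays positive. Without array 1 it was 0.12 ± 0.42 (limma adjusted p = 0.971). As deposited, the shift was 0.39 ± 0.58 with all arrays and −0.40 without array 1 (limma adjusted p = 0.876 and 0.778).

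THO2 and TEX1 gave the highest member values of all, at the 98.8 and 99.2 percentile of array 1, and both lay in a stretch of the slide with many high values on that array. Within 200 identifiers on either side, 22 of 393 features near THO2 (5.60%) and 39 of 373 near TEX1 (10.5%) had a centred value above 3 on array 1, against 183 features (2.40%) of the whole array. Near SUB2, HPR1 and THP2 there was none on array 1, and near the MFT1 features there were 1 and 2. Such stretches also lay around members that were not high. On array 5, 22 of 400 features near HPR1 (5.50%) were above 3, against 2.00% of the array, with HPR1 at −0.64. On array 3, 22 of 400 near TEX1 (5.50%) were, against 0.40% of the array, with TEX1 at −0.46. The threshold of 3 and this width were chosen after the values were seen. The 8 neighbours of THO2 had a median of 1.83 on array 1 and those of TEX1 one of 1.51, with 7 of 8 positive for each. What part the position played in the values of THO2 and TEX1 was not tested. The root mean square difference between THO2 and TEX1 over 6 arrays was 0.65 (log2). Of 5535 genes outside the set, 11 were closer to TEX1 and 24 closer to THO2. These counts include array 1, where both genes were high, and were not made without it. The signs of THO2 and TEX1 were the same on 3 of 6 arrays.

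HPR1 codes for a core subunit first known from mutants with high recombination between repeats, and its values were split evenly between the sides when turned. Its feature (1470) stood at 0.73, −0.03 and −1.36 on arrays 1, 4 and 6, with yra1-1 in channel 1, and at −0.95, 0.54 and −0.64 on arrays 2, 3 and 5, with it in channel 2. Each group spanned both signs. The turned shift was 0.07 ± 0.37 (SE), with an interval of −0.74 to 0.87, 3 positive and 3 negative arrays and a limma adjusted p of 0.974. As deposited it was −0.28 ± 0.37 (limma adjusted p = 0.853). Its value of −0.03 on array 4 lay amid lower neighbours, with a median of −1.16.

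THP2, a small THO subunit, stayed within the interquartile range of each array except array 4. Its feature (3076) stood at −0.04, 1.03 and 0.01 on arrays 1, 4 and 6, with yra1-1 in channel 1, and at −0.23, −0.49 and 0.47 on arrays 2, 3 and 5, with it in channel 2. The highest value, on array 4, had neighbours with a median of −0.20. The turned shift was 0.21 ± 0.32 (SE, 95% interval −0.50 to 0.91, limma adjusted p = 0.877). As deposited it was 0.12 ± 0.32 (limma adjusted p = 0.935). The SD of THP2 over the arrays was 0.54, at the 12.7 percentile of all features, whose median SD was 0.89. Among the members, MFT1 feature 4633 had a smaller SD, 0.40, at the 3.81 percentile.

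MFT1, which codes for a further small THO subunit, was the single member spotted more than once. Feature 3481 stood at −0.12, −1.16 and 0.92 on arrays 1, 4 and 6, with yra1-1 in channel 1, and at 1.80, 0.16 and 0.81 on arrays 2, 3 and 5, with it in channel 2. Feature 4633 stood at −0.07, −0.45 and −0.14 on arrays 1, 4 and 6, and at 0.40, −0.01 and −0.77 on arrays 2, 3 and 5. The channel groups overlapped for each feature. On arrays 5 and 6 the features lay on opposite sides of 0, by differences (4633 minus 3481) of −1.58 and −1.06. On array 3 they also straddled 0, at 0.16 and −0.01. On arrays 1, 2 and 4 they had the same sign.

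The MFT1 features lay 1152 identifiers apart, as did those of 286 of the 1100 genes with exactly 2 features, and 7 of 8 neighbouring positions held the same named gene in each place (GLO1, GAL80, SML1, DAK1, CPR3, PGA3 and YML133C). The same stretch of genes was thus spotted in both places. The neighbour medians differed between the places (4633 minus 3481) by −1.02 on array 2, where MFT1 differed by −1.40, by 0.64 on array 4, where it differed by 0.71, and by −0.70 on array 5, where it differed by −1.58. On array 6 the neighbour medians differed by −0.29 and MFT1 by −1.06, on array 3 by −0.10 and −0.17, and on array 1 they had opposite signs, at −0.13 for the neighbours and 0.04 for MFT1. The root mean square difference between the MFT1 features was 1.01 over the 6 arrays, beside a median of 0.94 for all genes with 2 features and 0.77 for those 1152 identifiers apart. The turned shift was −0.52 ± 0.37 for feature 3481 (SE, 95% interval −1.33 to 0.29, limma adjusted p = 0.629) and −0.05 ± 0.31 for feature 4633 (95% interval −0.73 to 0.64, limma adjusted p = 0.979). As deposited the shifts had opposite signs, 0.40 ± 0.37 and −0.17 ± 0.31 (limma adjusted p = 0.749 and 0.902).

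**Figure D2:**
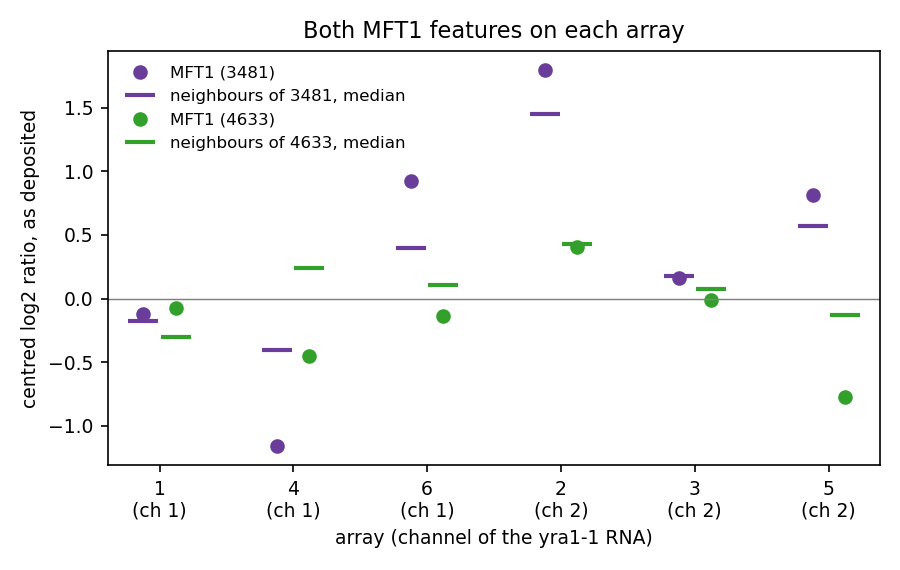
Centred log2 ratio as deposited (vertical axis) of both MFT1 features on each array (horizontal axis, with the channel of the yra1-1 RNA). Points are features and short bars the median of their 8 slide neighbours. The features lie 1.40 apart on array 2 and 1.58 apart on array 5, and the neighbour medians are higher for feature 3481 on both.

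**Figure D3:**
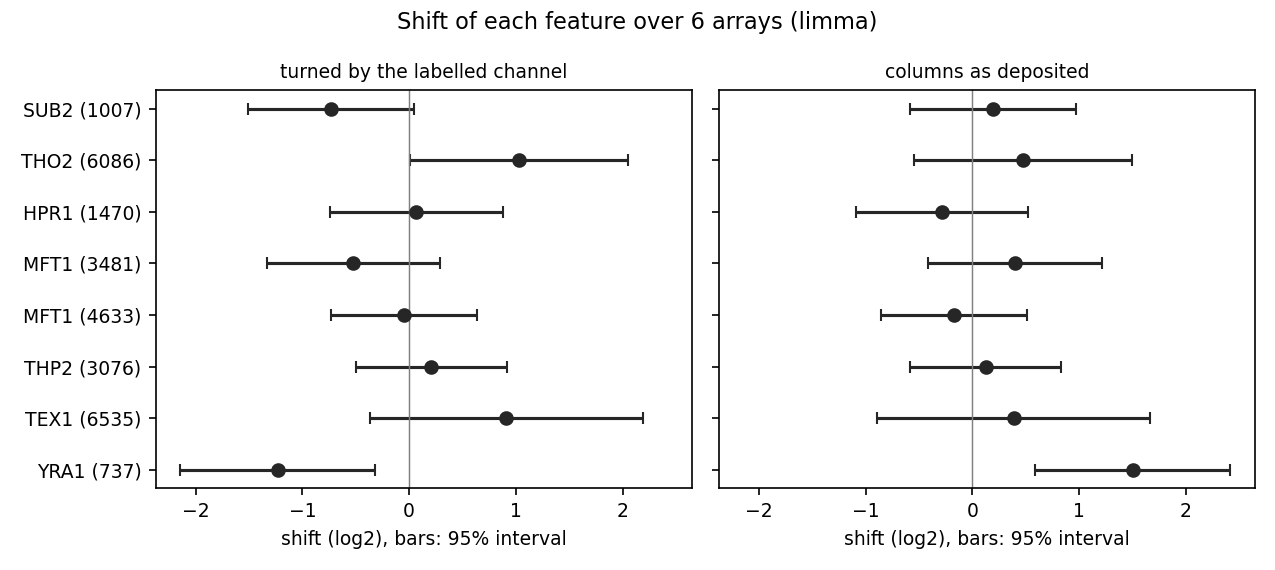
Shift of each feature over 6 arrays in log2 (horizontal axis), turned by the labelled channel (left) and as deposited (right), for the members and YRA1 (rows). Points are limma estimates and bars 95% intervals. The turned interval of THO2 (0.01 to 2.04) lies just beyond 0, and those of the other members cross 0.

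The 6 genes differed from one another over the arrays. SUB2 had the lowest value of the 6 genes on array 1 and the highest on arrays 3 and 5, where the THO genes ran from −0.70 to 0.54 and from −1.68 to 0.47 (log2, as deposited, MFT1 as the mean of its features). Its sign was that of THO2 on 1 of 6 arrays, of TEX1 on 2, of THP2 on 3 and of HPR1 and MFT1 on 4. The closest pairs after THO2 and TEX1 were MFT1 and THP2, with a root mean square difference of 0.98, and HPR1 and THP2, with 1.03. Of the other genes, 43.1% were at least as close to MFT1 and 41.0% to THP2 in the first pair, and 25.2% to HPR1 and 46.3% to THP2 in the second. SUB2 was at 1.11 from THP2 and 1.12 from MFT1, at 1.44 from HPR1, and at 2.42 and 2.75 from THO2 and TEX1.

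Most member values lay within the spread of their array. Of 42 values, 35 (83.3%) were within 1 SD of their array's centre, against 74.2% of all values. The sign was that of the neighbour median for 34 of 42 member values (81.0%), against 69.8% of all values. The exceptions were SUB2 on arrays 4 and 6, HPR1 on arrays 1 and 5, MFT1 feature 4633 on arrays 3, 4 and 6, and THP2 on array 4. The median size of a member value was 0.49 before and 0.30 after subtracting the neighbour median, beside 0.67 and 0.52 for all features (log2). In both comparisons the neighbours of THO2 include the features that share its values, so its likeness to them is partly built in. The scatter of members against neighbours shows that the values furthest above their neighbours were TEX1 and THO2 on array 1, by 2.94 and 2.08, and SUB2 on array 5, by 1.59.

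**Figure D4:**
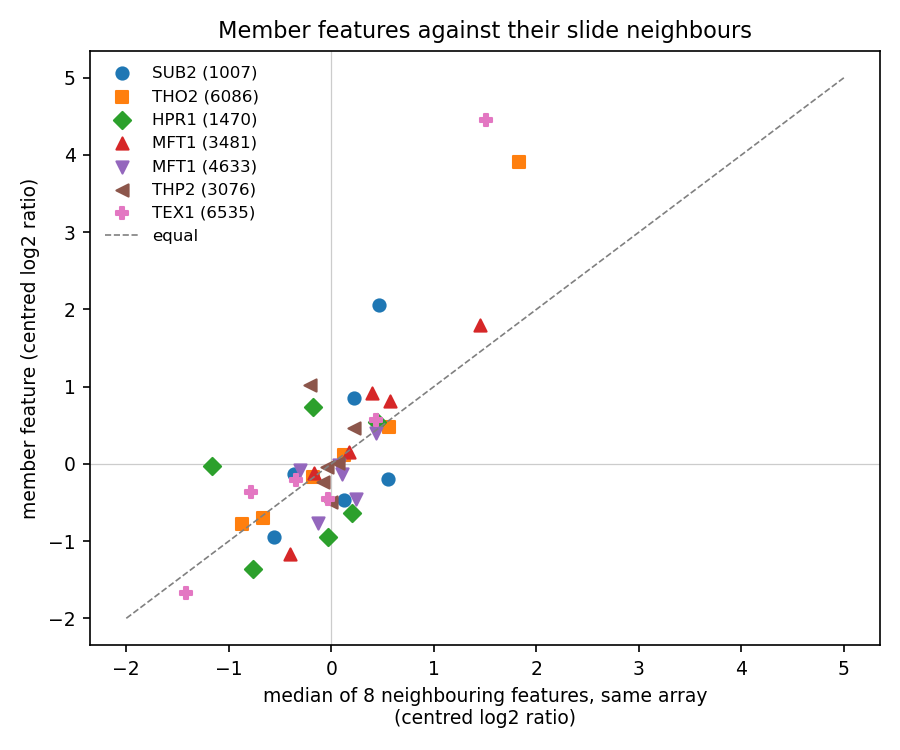
Value of each of the 7 member features (vertical axis) against the median of its 8 slide neighbours on the same array (horizontal axis), both as centred log2 ratios as deposited. Each point is 1 feature on 1 array, 42 in all, and the dashed line marks equal values. Most points lie near the line, with TEX1 and THO2 on array 1 and SUB2 on array 5 above it.

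The genes with the most similar values to each member over the 6 arrays were not THO genes. Likeness was the root mean square difference between genes, which was 1.06 to 2.18 in the median from a member to the 5535 other named genes. Members were left out of the search for the closest genes. For each member, 11 or more of the other genes were closer than any fellow member. SUB2 was closest to RPS17B, a ribosomal protein gene of the small subunit (0.22), and to FMP52 (0.29). THO2 was closest to COG5 and YNL035C, at 0.35 for each, and HPR1 to CNM1 (0.32) and YEH1 (0.33). The differences from COG5 and YNL035C were equal (0.347657). Whether these genes share their values was not tested, so they may not be separate matches. The values of THO2 were themselves shared with other features on 5 of 6 arrays. MFT1 was closest to PHO86 (0.15) and RGR1 (0.17), THP2 to CTR3 (0.15) and BOL2 (0.22), and TEX1 to SRO7 (0.45) and EMW1 (0.49). EMW1 was spotted 4 identifiers from TEX1, and the others lay 107 to 1864 identifiers from their member. With 6 arrays and this many genes, close matches exist for nearly any gene, so these are descriptions.

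Other genes around THO and Sub2 were counted from 3 lists. Of 22 TREX and export partners, 21 genes were found with 26 features, and 0 passed on either side in the turned reading (limma, 6 of 26 at an unadjusted p under 0.05, against 13.0% of all features) or as deposited (5 of 26, against 13.5%). The turned median was 0.12, beside 0.042 over all features, with 15 features positive and 11 negative. Among those with 1 turned sign on all 6 arrays, and not passing, were CBC2, a nuclear cap-binding subunit (1.74 ± 0.55, SE, limma adjusted p = 0.266), and on the negative side HRP1, a shuttling RNA-binding protein of 3′ end formation (−2.87 ± 0.92, limma adjusted p = 0.266), and PAB1, the poly(A)-binding protein (−1.75 ± 0.38, limma adjusted p = 0.180). Without array 1 CBC2 was at 1.04 (limma adjusted p = 0.558) and HRP1 at −1.75 (limma adjusted p = 0.558), and with array 1 turned over they were at 0.09 and −0.29. HRP1 was at −1.92 without array 3, and after the neighbourhood correction CBC2 was at 0.53 and HRP1 at −1.49. YRA1 itself was at −1.23 ± 0.42 turned (limma adjusted p = 0.280) and at 1.50 ± 0.42 as deposited (limma adjusted p = 0.107), and without array 1 at −0.82 and 1.92 (limma adjusted p = 0.602 and 0.0661).

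The second list held nuclear RNA surveillance and RNase H genes, which handle the faulty transcripts and RNA-DNA hybrids that arise in THO mutants. It also held RAD52, a recombination gene, which is counted with them. All 16 genes were found with 19 features, and 0 passed in either reading (limma, 3 of 19 turned and 2 of 19 as deposited at an unadjusted p under 0.05, against 13.0% and 13.5% of all features). As deposited, 17 of 19 features were negative and 2 positive, with a median of −0.26, beside 0.017 over all features. In the turned reading 12 were positive and 7 negative, with a median of 0.081, beside 0.042 over all features. As deposited, AIR1, of the TRAMP complex that marks RNA for decay (−0.97 ± 0.33, limma adjusted p = 0.186), and RNH203, a subunit of RNase H2 (0.65 ± 0.30, limma adjusted p = 0.383), kept 1 sign on all arrays without passing. After the neighbourhood correction they were at −0.36 and 0.43. The RNH203 values are those of feature 5860. With the features of RNH203 averaged, the shift was 0.54 (limma adjusted p = 0.548).

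The third list held the 25 DEAD-box helicases other than Sub2, its relatives in sequence, 1 of which (DBP5) is also an export partner. They had 32 features, of which 11 were positive and 21 negative when turned (median −0.18, beside 0.042 over all features), and 12 positive and 20 negative as deposited (median −0.12, beside 0.017). In the turned reading 0 passed (limma, 6 of 32 at an unadjusted p under 0.05, against 13.0% of all features). There DBP6, a ribosome assembly helicase (1.63 ± 0.47, limma adjusted p = 0.251), and the genes of translation initiation factor eIF4A, TIF2 (−1.26 ± 0.35, limma adjusted p = 0.248) and TIF1 (−0.67 ± 0.35, limma adjusted p = 0.464), had 1 turned sign on all 6 arrays. TIF1 was at −0.36 without array 5, and DBP6 at 0.50 after the neighbourhood correction and 1.01 with array 1 turned over. The TIF1 values are those of feature 3835. With the features of TIF1 averaged, the shift was −0.65 (limma adjusted p = 0.476). As deposited, 1 of 32 features passed (4 at an unadjusted p under 0.05), against 1.65% of all features (13.5%): ROK1, a helicase of small-subunit ribosome assembly, at −1.68 ± 0.36 (feature 4355, limma adjusted p = 0.0429). Averaged with the other ROK1 feature it was at −0.42 (limma adjusted p = 0.652), after the neighbourhood correction at −0.44 (limma adjusted p = 0.463), and it did not pass without arrays 1, 2, 3, 4 or 6 (limma adjusted p = 0.104 to 0.171). This feature shared its value with another feature on 4 of 6 arrays, and without such repeated values it could not be fitted.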

How the data were processed

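Per the value table, the authors deposited log10 ratios, with 1 value for each feature on each array. The base follows from values that are exact ratios of small whole numbers on that scale. No source used here names the image analysis, background treatment, normalization or numerator. Of 7684 deposited lines, 1 had no numeric identifier and was dropped, and lines of 3 repeated identifiers were averaged. The ratios were put on the log2 scale and centred by array median. Of 7680 features, 6695 had 1 gene symbol in the platform annotation, and 6690 of those matched the current gene table by gene ID, members included. Signal over background is unknown, so the number of arrays limits precision.

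One limma 3.58.1 fit (lmFit, eBayes, R 4.3.3) held the labelled mutant channel and the column as deposited, on features measured on 4 or more arrays, 2 or more per channel assignment. Tests are two-sided and p-values Benjamini-Hochberg adjusted over all features, with a threshold of 0.05. The fit was tested on simulated data, with noise drawn independently for each feature and shifts larger than those of the members. That test does not cover noise shared by neighbouring features or shifts of the members' size. All members and YRA1 are named. From each list, passing features are named. Where none passes, up to 2 a side with the largest shifts and 1 sign on all 6 arrays are named. For each member, the 2 genes outside the set with the smallest root mean square difference are named. Alternatives changed centring, scaling, arrays, batches (day, scan), weights, position correction and filters. Members, lists and alternatives were chosen with earlier results of these data known. Neighbours on the slide were taken from identifiers with an assumed row width of 20, and no spot layout was used to check this. Ratios of small whole numbers are values within 1e-09 of log10 of a ratio whose terms multiply to less than 1000000. Promoter and protein sequences were not used here.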

Additional observations from a re-analysis of the deposited data

Results flagged for a closer look

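On array 1, THO2 lay far from the other arrays, at 3.91 against a next highest value of 0.48 as deposited and 0.77 when turned by the labels (centred log2 ratio). TEX1 did so in the columns as deposited, at 4.46 against a next highest of 0.57, and not when turned, where the next was 1.68. The gap over the range was 0.733 for THO2 as deposited and 0.826 turned, and 0.634 for TEX1 as deposited, each above Dixon's critical value for 6 arrays. Chance gives about 1 such group in 20, and 6.85% of all features as deposited and 7.35% turned were above it. Both features lie in the part of the slide with many high values on array 1, and THO2 shares its value there with neighbouring features.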

How the results depend on the processing

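Members kept their direction in 252 of 292 values under the alternatives, and 0 of 7 passed under any except uncentred arrays. This count includes alternatives that cannot move a member's estimate, so it overstates how far the directions were tried. Examples are the fit without a term for the other reading and, for genes with 1 feature, averaging features. SUB2 stayed negative when turned in all 21 (−2.84 to −0.41), some of which left its shift at −0.73 by construction. Leaving arrays uncentred moved the median of all features to −2.07 turned and −0.82 as deposited, and 4 members passed when turned: SUB2, HPR1 and both MFT1 features. There 4887 features passed turned (1 positive, 4886 negative) and 2 as deposited. Turned values that changed sign were THO2 −1.08, HPR1 −2.04, THP2 −1.90, TEX1 −1.20, CBC2 −0.37 and DBP6 −0.48, and as deposited SUB2 −0.64, THO2 −0.36, MFT1 (3481) −0.43, THP2 −0.71, TEX1 −0.45 and RNH203 −0.18. With array 1 turned over, turned values were THO2 −0.28, HPR1 −0.18 and TEX1 −0.58, deposited values THO2 −0.83 and TEX1 −1.10, and 2 features passed as deposited.

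Within day 1 the turned value changed sign for HPR1 (−0.36), MFT1 (0.055 for 3481, 0.32 for 4633) and THP2 (−0.23), and the deposited one for THO2 (−0.33) and TEX1 (−0.94). Within day 4 the deposited value did so for SUB2 (−0.047), HPR1 (0.64) and THP2 (−0.27). Other turned changes were HPR1 with scaled arrays (−0.012) and array weights (−0.25), and MFT1 (4633) with the neighbourhood correction (0.0069) and without ratios of small whole numbers (0.048). As deposited they were THP2 with array weights (−0.018) and MFT1 (4633) averaged with its other feature (0.11). Leaving out 1 array at a time gave turned ranges of −0.17 to 0.35 for HPR1, −0.21 to 0.084 for MFT1 (4633), −0.78 to −0.26 for MFT1 (3481, ends without arrays 6 and 4), 0.035 to 0.35 for THP2 (without arrays 4 and 5) and −0.85 to −0.36 for TIF1 (without arrays 3 and 5), and deposited ranges of −0.086 to 0.46 for SUB2, −0.13 to 0.82 for THO2, −0.52 to 0.00033 for HPR1, −0.050 to 0.22 for THP2 and −0.40 to 0.80 for TEX1. The cause of these changes was not tested.

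Over all features, the count passing when turned was 0 to 4 without 1 array, 2 with scaled arrays, 7 with array weights, and 0 with the neighbourhood correction, without repeated values and for features on all 6 arrays (limma, 677, 923 and 990 at an unadjusted p under 0.05). As deposited it was 0 to 214 without 1 array (0 without array 4 and without array 6, with 817 and 783 at an unadjusted limma p under 0.05), 0 with days averaged (limma, 888 at an unadjusted p under 0.05), 257 with day as a random block, 580 with array weights, 3 with the neighbourhood correction, 36 without repeated values and 69 with genes averaged. Without repeated values neither THO2 nor ROK1 (4355) could be fitted. The arrays form 1 group with no replicate numbers to pair, and days 1 and 4, which hold both channel assignments, were used within day and as a block.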
